A study of Rattus norvegicus with 352 samples.

Results

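Brain libraries with high and low levels of Meg3, a long noncoding RNA that stays in the nucleus, were compared. Other nuclear noncoding RNAs did not all move with it, as given below. The level of a gene in a library is log2 of its CPM plus 1, where CPM is the estimated count after each library is scaled to a total of 1000000. The 86 libraries in the top 25% of the Meg3 level formed the high set, the 86 in the bottom 25% formed the low set, and the remaining 170, called the middle libraries, make up the rest of the table. Every library came from a frozen whole brain hemisphere of a naive, untreated heterogeneous stock rat, an outbred laboratory population; genotype, age and sex are not given in the labels. The study therefore has no treated arm, and the sets were defined by a measured value only. The lowest Meg3 level in the high set was 8.986 and the highest level just outside it was 8.984. The highest level in the low set was 8.418 and the lowest level just outside it was 8.419, so both edges cut through a continuous spread of libraries.

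Long noncoding RNAs (lncRNAs) are transcribed and spliced like messenger RNA but are not translated, and many of them, Meg3 and Miat included, remain in the nucleus. Other polyadenylated RNAs also wait there: transcripts with detained introns are spliced except for selected introns and are held back from export until those are removed or the RNA is degraded. Meg3 is an imprinted gene, expressed from the maternal copy, and shares its chromosomal region with Dlk1, which is expressed from the paternal copy and encodes a membrane protein related to Notch ligands. The same region carries long clusters of small nucleolar RNAs and microRNAs within noncoding host transcripts. In brain, Meg3 and Miat are found mainly in neurons.

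The start of Meg3 is shown because the whole contrast rests on this transcript. RefSeq places Meg3 at chr6:134274056-134306249 on assembly GRCr8, plus strand. The window of 300 bases around its start, chr6:134273806-134274105, has a GC content of 54.3%. The capitals mark the matches to TGACGTCA, the cyclic AMP response element, from position -66 to -59 relative to the start site, and to TATATAAA, a TATA box, from -36 to -29.

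Meg3 promoter window: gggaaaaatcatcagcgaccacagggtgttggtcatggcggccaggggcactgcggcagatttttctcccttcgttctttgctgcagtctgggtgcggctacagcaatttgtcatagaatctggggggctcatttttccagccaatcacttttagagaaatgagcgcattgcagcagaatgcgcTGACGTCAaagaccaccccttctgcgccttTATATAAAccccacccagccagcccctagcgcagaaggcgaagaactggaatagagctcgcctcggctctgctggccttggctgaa

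Both motifs were searched on both strands in all 27457 promoter windows of the same length, and they do not overlap in Meg3. TGACGTCA was found in 1.91% of all windows, in 2.85% of those of tested genes, in 1.88% of those of genes at least 0.25 higher in the high set, and in 2.94% of those of genes at least 0.25 lower. TATATAAA was found in 1.62%, 0.827%, 1.04% and 1.18% of the windows in the same order. A match describes the letters only.

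The span of Meg3 also holds the microRNA gene Mir770 (chr6:134298084-134298159). It is shown because it lies inside Meg3 and is among the 5 microRNA genes that could be measured, although polyA libraries count host and precursor RNA and not the mature strands. The capitals mark the seed, bases 2 to 8, and the 2 strands have different seeds.

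rno-miR-770-5p: aGCACCACgugucugggccacg

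rno-miR-770-3p: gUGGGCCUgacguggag

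Library totals ranged from 5418230 to 42980793 estimated counts, with medians of 21225646 in the high set, 22140396 in the middle libraries and 22166098 in the low set. The median number of genes above 0 was 26507, 26392 and 26118, and the median ribosomal RNA share was 0.364%, 0.355% and 0.338%, in the same order. Of 11 libraries whose median correlation with the others was far below the rest, 7 were in the high set, 3 in the middle and 1 in the low set. Of the 14 libraries that the labels say were renamed after a mix-up, 5 were in the high and 3 in the low set. That each library came from a different rat is assumed, since the labels leave it open, and p-values measure only the spread between these libraries.

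Meg3 itself lay between 8.99 and 9.79 in the high set, with a median of 9.22, and between 7.47 and 8.42 in the low set, with a median of 8.23. In CPM the medians were 596 in the high set, 422 in the middle libraries and 298.5 in the low set. The means were 9.25 ± 0.19 and 8.17 ± 0.21 (SD, n = 86 each), a difference of 1.08, or 2.11-fold. These values chose the libraries and are given as a description only. All differences between the sets below come from the same libraries, so they are also descriptions, with no p-value.

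Miat, the second nuclear lncRNA named with the contrast, lay between 8.11 and 9.18 in the high set, with a median of 8.46, and between 7.15 and 8.05 in the low set, with a median of 7.68. The ranges of the 2 sets did not overlap. The difference of means was 0.82 (8.50 ± 0.19 against 7.68 ± 0.19, SD, n = 86 each), or 1.76-fold. Of the 86 libraries in the high set of Meg3, 76 were also in the top 25% of Miat and 0 in its bottom 25%. Of the 86 in the low set, 70 were in the bottom 25% of Miat and 0 in its top 25%. Miat thus went with Meg3, while other nuclear lncRNAs were divided, as given below.

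Because the sets were chosen on Meg3, the test was made in the 170 middle libraries, which the contrast did not use. There, the level of each of 16682 genes was regressed on the level of Meg3 with limma, and a gene rose or fell with Meg3 where the Benjamini-Hochberg adjusted p was under 0.05. The slope is the change in the gene's log2 level per unit of the Meg3 log2 level; both are scaled to the same library total. The middle libraries span Meg3 levels from 8.42 to 8.98. Miat rose with a slope of 0.71 ± 0.04 (SE, n = 170, limma, adjusted p = 1.5e-36).

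**Figure D1:**
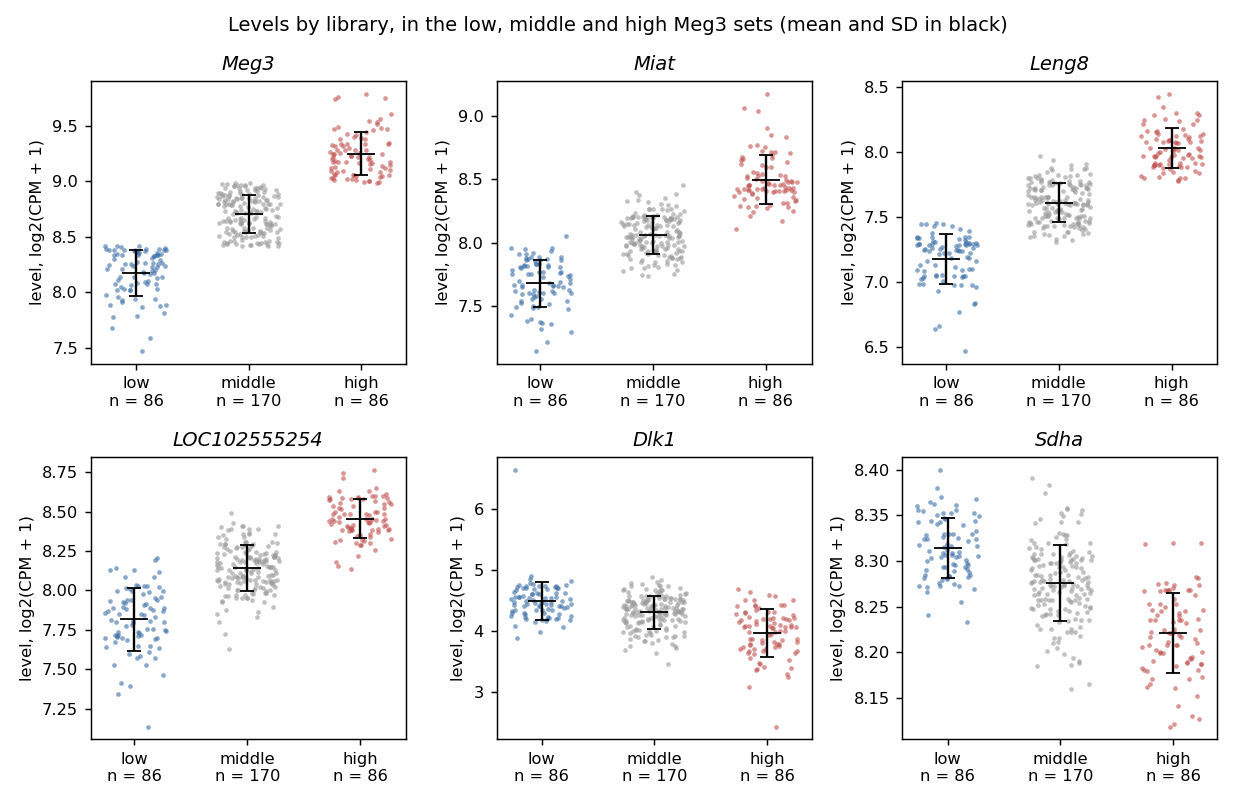
Levels of 6 genes, log2(CPM + 1), in each library of the low set (n = 86), the middle (n = 170) and the high set (n = 86); dots are libraries, and black marks give the mean and SD. Each panel has its own scale: Miat, Leng8 and LOC102555254 step up with the Meg3 set, Dlk1 steps down, and the Sdha difference is -0.09.

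Between the sets, 1911 of 16683 genes were at least 0.25 higher in the high set (11.5%) and 1.36% were at least 0.25 lower. Without scaling for depth, the values as deposited gave 9.20% higher and 9.24% lower. Because the rule used this contrast, these shares are a description. The median difference over all genes was 0.015, 290 genes were at least 0.5 higher and 28 at least 0.5 lower. The interquartile ranges were apart and higher in the high set for 2354 genes (14.1%) and lower for 606 (3.63%). In the middle libraries, 2746 genes rose with Meg3 (16.5%) and 894 fell (5.36%). With median ratio scaling 12.9% rose and 13.9% fell, so the balance depends on the scaling. With the values as deposited 0.803% of genes rose and 5 genes fell.

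The genes called by size were then read in the middle libraries. Of 1910 genes other than Meg3 that were at least 0.25 higher between the sets, 1495 (78.3%) rose in the middle libraries and 0 fell by limma (0 at an unadjusted p under 0.05). Of the genes at least 0.25 lower, 48.9% fell and 0 rose by limma (0 at an unadjusted p under 0.05). The genes that did not pass had slopes of either sign: in all, 22 of the higher genes had a slope under 0 and 12 of the lower genes a slope above 0. The slopes of rising genes had a median of 0.27 and those of falling genes a median of -0.12, so the falling genes moved by small amounts: 746 of the 894 had a slope between -0.25 and 0.

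**Figure D2:**
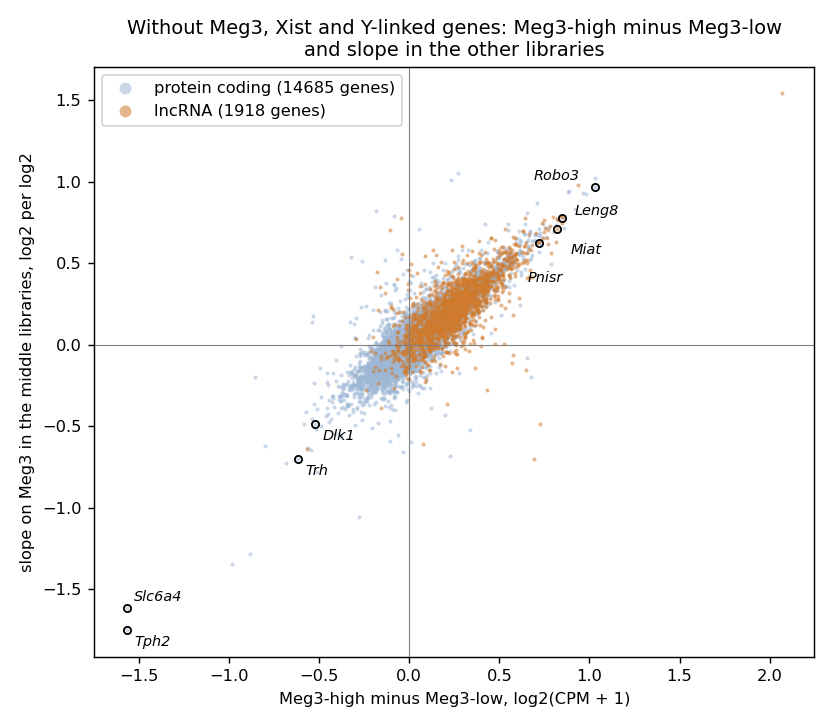
Each dot is a gene; the x axis is the difference between the high and low sets, log2(CPM + 1), and the y axis is the slope on Meg3 in the 170 middle libraries, log2 per log2. Long noncoding RNAs (orange) lie mostly to the upper right of protein coding genes (blue); Miat (0.82, slope 0.71) and Leng8 (0.85, slope 0.78) lie at the upper right, below Robo3 (1.03, slope 0.97), and Tph2 (-1.56, slope -1.75) lies at the lower left.

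The whole ranges of the sets were apart for 19 genes, each higher in the high set, and for 0 lower ones. Besides Meg3 and Miat these were Leng8, Clasrp, Irf3, Snrnp70, Ssh3, Snhg11, P3h3, LOC102554095, Akap8l, Nrbp2, Trank1, Srrm2, Wsb1, Tspoap1, Dhrs1, Fcho1 and Zmym3. Of the 19, 4 are lncRNAs (Meg3, Miat, Snhg11 and LOC102554095), where 1922 of all 16683 genes measured are lncRNA genes. The ranges of Meg3 are apart by the rule itself. The rest are protein coding. Leng8 lay between 7.77 and 8.44 in the high set (median 8.01) and between 6.47 and 7.45 in the low set (median 7.24). Its difference was 0.85, and it rose with a slope of 0.78 ± 0.03 (SE, limma, adjusted p = 7e-53), the smallest p of all genes. Akap8l, a nuclear protein that binds protein kinase A, lay between 7.09 and 7.74 against 6.22 and 6.92, and rose with a slope of 0.68 ± 0.03 (adjusted p = 1.4e-49).

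Several of these genes encode splicing factors. Snrnp70, the 70K protein of the U1 small nuclear ribonucleoprotein, lay between 7.71 and 8.33 in the high set and between 7.18 and 7.70 in the low set (difference 0.56, slope 0.51 ± 0.04). Srrm2, a scaffold of nuclear speckles, differed by 0.47 with a slope of 0.43 ± 0.03, and Clasrp, an SR protein that binds the kinase Clk4, by 0.63 with a slope of 0.52 ± 0.04. Others have no role in splicing: Irf3, a transcription factor of the interferon response, differed by 0.72 (slope 0.67 ± 0.05), Tspoap1, a protein of the presynaptic active zone, by 0.41 (slope 0.36 ± 0.03), and Fcho1, which starts clathrin-coated pits, by 0.74 (slope 0.74 ± 0.04). All 6 rose in the middle libraries by limma, with adjusted p of 2.6e-19 or less.

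Among nuclear lncRNAs, 7 of the 21 listed could be measured, and the well-known Malat1 and Neat1 were not among them. Without Meg3, which chose the sets, the median difference of the other 6 was 0.53, and 4 of 6 were at least 0.25 higher. With Meg3 the median was 0.74. Of these 6, 3 rose in the middle libraries: Miat, Snhg11 and Ftx. Snhg11, a neuronal host RNA of small nucleolar RNAs, lay between 7.27 and 7.96 in the high set and between 6.22 and 7.22 in the low set (difference 0.77, slope 0.70 ± 0.04, limma, adjusted p = 1.5e-36). Ftx, from the X-inactivation centre, differed by 0.74, and 77 of 86 high libraries were above the highest low one (slope 0.66 ± 0.09, adjusted p = 5.6e-10).

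The other 3 did not pass. Tug1 differed by 0.03 between the sets (slope 0.18 ± 0.16, adjusted p = 0.46), Pantr1 by 0.24 (slope 0.04 ± 0.09, adjusted p = 0.81) and Pvt1 by 0.32 (slope 0.07 ± 0.09, adjusted p = 0.60, limma). Tug1 is a lncRNA found both in the nucleus and in the cytoplasm, and its sets overlapped almost wholly, from 3.84 to 5.69 against 4.13 to 5.52. Nuclear lncRNAs thus did not move as a block. Gas5, a lncRNA that hosts small nucleolar RNAs and is also found in the cytoplasm, was 0.36 higher and rose with a slope of 0.34 ± 0.06 (adjusted p = 5.6e-07).

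Over the whole annotation, 1922 lncRNA genes were measured, with a median difference of 0.24, and 900 of them (46.8%) were at least 0.25 higher while 3 were at least 0.25 lower. Protein coding genes, of which 14690 were measured, had a median difference of 0.0024, with 986 (6.71%) higher and 1.52% lower. In the middle libraries, 787 of 1921 lncRNA genes rose (40.97%) and 2 fell, against 1935 (13.2%) rising and 892 (6.07%) falling coding genes. With scores of neurons, astrocytes, oligodendrocytes and microglia in the model, 18.3% of lncRNA genes and 8.58% of coding genes rose. With the values as deposited these shares were 3.18% and 0.483%. With median ratio scaling they were 36.6% and 9.73%, and 15.7% of coding genes fell. The share of all counts that fell on lncRNA genes had a median of 1.59% in the high set (1.37% to 1.81%), 1.37% in the middle libraries and 1.20% in the low set (0.978% to 1.42%). This share includes Meg3, which chose the sets, and Xist, whose high and low classes were unevenly spread over them, as given below.

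Within coding genes, the share that was higher differed with the annotation. Of 1995 coding genes that also have an annotated noncoding transcript, 16.9% were at least 0.25 higher, against 5.10% of the 12695 without one, and the medians were 0.08 and -0.0052. The share also fell with the GC content of the promoter window, known for 81.99% of coding genes: 12.4% of genes with a GC content up to 45% were higher, 7.95% of those between 50% and 55%, and 2.96% of those above 75%. It was lower at higher mean levels too, 11.2% at a mean level of 1 to 2 and 2.07% at 7 or more. The share of coding genes at least 0.25 lower was also smaller there, 3.17% at a mean level of 1 to 2 and 0.653% at 7 or more. By promoter GC that share was 1.75% up to 45%, 1.94% between 50% and 55%, and 0.808% above 75%. Calls in both directions were thus fewer at high levels and at the highest GC. Gene length showed no such order. The share that was at least 0.25 higher was 3.19% for coding genes spanning up to 3000 bp, 8.20% between 10000 and 30000 bp and 3.07% above 300000 bp. For lncRNA genes it went from 38.4% up to 3000 bp to 67.7% between 100000 and 300000 bp. Genes are not independent replicates, and these shares were not tested.

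**Figure D3:**
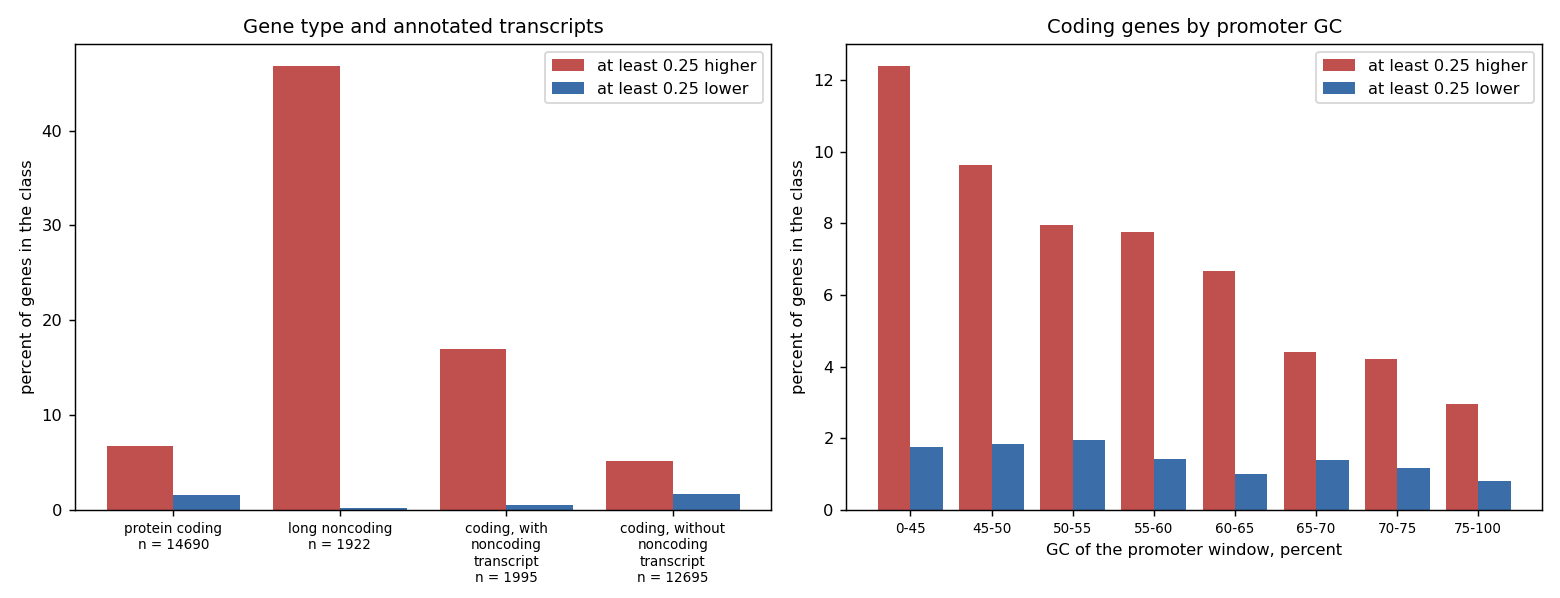
Bars give the percent of genes in each class that were at least 0.25 higher (red) or at least 0.25 lower (blue) in the high set. Left, by gene type and annotated transcripts: 46.8% of lncRNA genes against 6.71% of coding genes were higher; right, coding genes by promoter GC, from 12.4% at the lowest to 2.96% at the highest GC.

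Of 12 genes other than Meg3 measured from a list of the imprinted region and its neighbours, the median difference was -0.0044 and 0 were at least 0.25 higher. Dlk1 alone was at least 0.25 lower. In the middle libraries 1 rose, Begain, and 2 fell, Dlk1 and Wars1. The noncoding hosts below are not on that list and were chosen after their values were seen. Dlk1 (chr6:134192491-134199779), the paternally expressed neighbour upstream, lay between 2.43 and 4.68 in the high set (median 4.05) and between 3.88 and 6.64 in the low set (median 4.47). The sets overlapped, but 79 of 86 high libraries were below the median of the low set. The difference was -0.52, and Dlk1 fell in the middle libraries with a slope of -0.49 ± 0.12 (SE, limma, adjusted p = 0.00061). Its difference was -0.08 and its slope -0.04 (adjusted p = 0.75) with the scores of choroid plexus, meninges, hypothalamus, cerebellum and monoamine neurons in the model. With the 4 cell type scores the adjusted p was 0.081.

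Downstream of Meg3 the noncoding hosts were higher. LOC102555254 (chr6:134349619-134558975), a lncRNA whose span holds 84 small nucleolar RNA genes and 18 microRNA genes, lay between 8.14 and 8.77 in the high set and between 7.14 and 8.21 in the low set, and 83 of 86 high libraries were above the highest low one. It differed by 0.64 and rose with a slope of 0.61 ± 0.05 (limma, adjusted p = 8.3e-25). LOC120103623 (chr6:134559128-134586223), whose span holds 25 microRNA genes, differed by 0.75 and rose with a slope of 0.69 ± 0.06 (adjusted p = 2e-22). The genes inside these hosts were mostly near 0. Only 1 small nucleolar RNA gene there, LOC134479554, was measured: it differed by 0.31, with a slope of 0.13 ± 0.11 that did not pass (adjusted p = 0.41).

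Mir770, whose sequence is given above, lay between 3.72 and 4.86 in the high set (median 4.22) and between 2.67 and 4.02 in the low set (median 3.45). It differed by 0.78 and rose with a slope of 0.75 ± 0.09 (limma, adjusted p = 1.5e-11). Its reads lie inside Meg3, so it cannot be told apart from Meg3. Rtl1 (chr6:134325231-134335780), a coding gene derived from a retrotransposon and expressed from the paternal copy, is overlapped by antisense RNA in this region, and whether counting used strand is not given. It differed by 0.22, with a slope of 0.13 ± 0.08 that did not pass (adjusted p = 0.27). Of the other measured microRNA genes, Mir186 was 0.44 higher and rose (slope 0.32 ± 0.10, adjusted p = 0.0078, or 0.077 with the cell type scores). Mir3064, 0.38 higher, did not pass (adjusted p = 0.43), and Mir22 and Mir760, with differences of 0.08 and 0.07, did not pass either (adjusted p = 0.96 and 0.21).

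**Figure D4:**
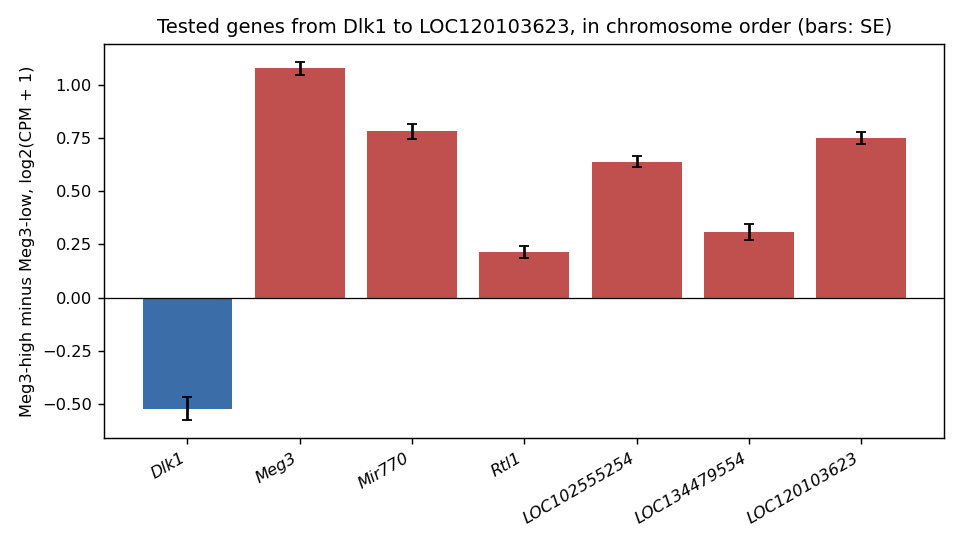
Difference between the high and low sets, log2(CPM + 1), for the 7 measured genes from Dlk1 to LOC120103623 in chromosome order; error bars are the SE of the difference over 86 libraries a set. Dlk1 is at -0.52, and the genes from Meg3 on are at or above 0.22.

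Genes whose transcripts are known to carry detained introns were higher in the high set. Levels are for the whole gene, so transcripts that keep an intron were not told apart from fully spliced ones. All 28 listed were measured, the median difference was 0.39, and 20 of 28 were at least 0.25 higher, beside 11.5% of all genes. In the middle libraries 22 of 28 rose, beside 16.5% of all genes. Pnisr, a nuclear protein rich in serine and arginine, lay between 7.17 and 7.95 against 6.37 and 7.18, a difference of 0.72, and rose with a slope of 0.63 ± 0.06 (limma, adjusted p = 4.7e-18). Rsrp1, a small protein of the same kind, differed by 0.61 (slope 0.57 ± 0.05), Luc7l3, a U1-associated protein, by 0.55 (slope 0.48 ± 0.06), and the Clk kinases that phosphorylate SR proteins by 0.52 for Clk1 and 0.41 for Clk4. Members that did not pass included Zfp207, Srsf3, Tra2b, Ddx5 and Prpf38b, with differences from 0.03 to 0.11. Ogt, which adds O-linked N-acetylglucosamine to nuclear proteins and has a well-studied detained intron, was 0.43 higher (slope 0.38 ± 0.04).

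Of 34 paraspeckle and splicing proteins, 2 were at least 0.25 higher, Srsf11 (0.37) and Sf3b1 (0.27), and the list median was 0.05. In the middle libraries 9 rose and 3 fell, the latter being Sf3b2, Nono and Hnrnpk with slopes of -0.11, -0.07 and -0.07. Nono did not pass with the cell type scores (adjusted p = 0.32) or the tissue scores (0.34), nor Hnrnpk with the tissue scores (0.11). Among 29 genes of nuclear RNA decay, polyadenylation and export the median was 0.07, and 3 were at least 0.25 higher. Pabpn1, the nuclear poly(A) binding protein, lay between 6.94 and 7.57 against 6.39 and 7.02, differed by 0.56 and rose with a slope of 0.50 ± 0.04 (limma, adjusted p = 7.9e-22). Nxf1, the messenger RNA export receptor, and Zfc3h1, which directs polyadenylated RNA to the exosome, both differed by 0.42 and rose. In all, 11 of the 29 rose. Of all genes 11.5% were at least 0.25 higher, and neither list held a larger share of such genes. Over all genes 16.5% rose and 5.36% fell in the middle libraries. Both list medians are small, and they turned negative (-0.080 and -0.062) with the values as deposited.

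The largest differences were of varied kinds. Among genes of mean level 3 or more, the first after Xist, LOC134484082 (an X-linked lncRNA) and Meg3 were Robo3, an axon guidance receptor, Rtbdn, a riboflavin-binding protein, and Smokl8, one of a family of near-identical kinase genes whose counts are uncertain. Robo3 lay between 3.41 and 4.75 in the high set and between 1.81 and 3.42 in the low set, a difference of 1.03, and 85 of 86 high libraries were above the highest low one. It rose with a slope of 0.97 ± 0.13 (limma, adjusted p = 9e-11). Rtbdn differed by 1.03 (slope 1.02 ± 0.07) and Smokl8 by 0.97 (slope 0.93 ± 0.12). L3mbtl1, a chromatin protein that binds methylated histones, differed by 0.88 (slope 0.95 ± 0.05), and Catsperz, a subunit of a sperm calcium channel, by 0.88 (slope 0.94 ± 0.06). Slc28a2 (0.86), Fam227a (0.81), Zfp692 (0.80) and Col27a1 (0.78) also rose; Leng8, Miat and lncRNA genes without a given name lie among these.

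Xist, the noncoding RNA that coats the inactive X chromosome, had the largest difference, 3.59. Its levels fall into separate classes: no library lay between 4.89 and 8.62. High Xist was found in 61 of 86 libraries of the high set (70.9%), 86 of 170 in the middle and 30 of 86 in the low set (34.9%). Ddx3y, on the Y chromosome, had a difference of -2.19. The labels do not give sex. Neither gene passed in the middle libraries (adjusted p = 0.42 for Xist and 0.46 for Ddx3y, limma). Within the high Xist class (61 high against 30 low libraries) 9.98% of genes were at least 0.25 higher and 1.34% lower, and within the low class (25 against 56) 12.6% and 1.44%. The Miat difference was 0.80 and 0.81 in the 2 classes.

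The identifiers of libraries fall into blocks that start with the same 6 characters, the only grouping in the labels. In the 5 blocks with at least 3 libraries of each set, the Miat difference was between 0.73 and 0.87, the Leng8 difference between 0.77 and 0.91, and the share of higher genes between 9.88% and 13.8%. The detained intron median was between 0.34 and 0.41. The Dlk1 difference ranged more widely, from -0.66 to -0.16.

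Among the gene lists, those with the most lower members mark parts of the brain or its coverings. Over all genes 1.36% were at least 0.25 lower and 5.36% fell in the middle libraries. These are the shares to read beside the list counts below. A lower level in a hemisphere cannot tell fewer cells of a type from less RNA per cell. Of 13 choroid plexus genes, 12 were at least 0.25 lower, with a list median of -0.37, and 6 fell in the middle libraries. Sostdc1, a secreted inhibitor of bone morphogenetic protein signalling, lay between 2.38 and 3.94 in the high set (median 3.39) and between 3.36 and 4.39 in the low set (median 3.76); it fell with a slope of -0.45 ± 0.13 (limma, adjusted p = 0.0046). Ttr, the plexus protein that carries thyroxine, differed by -0.37 and did not pass (adjusted p = 0.11, or 0.035 with the Xist class in the model). The summed level of the list had a median of 1026 CPM in the high set (620 to 1273) and 1324 CPM in the low set (883 to 1656).

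Of 12 meningeal fibroblast genes, 9 were at least 0.25 lower, with a median of -0.27, and 4 fell: Igf2, Bgn, Slc13a4 and Fbln1. Igf2, an imprinted growth factor made in the coverings of the brain, lay between 6.17 and 7.18 against 6.58 and 7.54, differed by -0.49 and fell with a slope of -0.32 ± 0.09 (limma, adjusted p = 0.0066). Col1a1 and Col1a2, the chains of type I collagen, differed by -0.45 and -0.41 and did not pass (adjusted p = 0.38 and 0.16). With the Xist class in the model 5 of the 12 were at least 0.25 lower and 2 fell. Slc13a4 did not pass without the libraries that stand apart (adjusted p = 0.062). The summed level had medians of 342.5 and 445 CPM in the high and low sets.

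Monoamine neuron genes held the largest differences among these lists. Of 11 monoamine neuron genes, 7 were at least 0.25 lower, with a median of -0.36, and 7 fell in the middle libraries. Tph2, the enzyme of serotonin synthesis in neurons, lay between 0.45 and 3.91 in the high set (median 1.76) and between 1.20 and 4.09 in the low set (median 3.65), a difference of -1.56. The sets overlapped over most of their ranges, and 22 of 86 high libraries were below the lowest low one. Tph2 fell with a slope of -1.75 ± 0.39 (limma, adjusted p = 0.00026). Slc6a4, the serotonin transporter, differed by -1.57 (slope -1.62 ± 0.39) and Ddc, which makes dopamine and serotonin from their precursors, by -0.51 (slope -0.78 ± 0.13). With the 4 cell type scores in the model, 1 of the 11 fell.

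Of 13 hypothalamic genes, 8 were at least 0.25 lower, with a median of -0.31, and 7 fell: Pomc, Trh, Irs4, Otp, Cartpt, Oxt and Gal, 5 of which encode neuropeptides or their precursors. Trh, the precursor of thyrotropin-releasing hormone, lay between 1.51 and 3.59 in the high set (median 2.74) and between 2.40 and 3.83 in the low set (median 3.45), and fell with a slope of -0.70 ± 0.19 (limma, adjusted p = 0.0027). Agrp went against the list, with a difference of 0.21 and no passing slope (adjusted p = 0.79). With the 4 cell type scores in the model these 7 no longer passed. Slc6a5 and Glra1, the transporter and receptor of glycine in brainstem and spinal cord, differed by -0.57 and -0.53 and fell (slopes -0.41 ± 0.13 and -0.36 ± 0.13). Their slopes were 0.02 and 0.0094 with the tissue scores in the model.

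Cerebellar genes differed less. Of 17, 5 were at least 0.25 lower, with a median of -0.21, and 2 fell, Barhl1 and Zic2, both transcription factors. Without the libraries that stand apart 2 of 17 were at least 0.25 lower. Of 27 other imprinted genes 4 were at least 0.25 lower, Igf2, Peg10, Asb4 and Cdkn1c, and 11 fell while 2 rose, Impact and Ube3a (slopes 0.22 ± 0.03 and 0.15 ± 0.04). The list median of -0.09 became -0.0012 with the tissue scores in the model.

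With the mean z values of choroid plexus, meningeal, hypothalamic, cerebellar and monoamine genes added, a setting chosen after seeing the data, 0.0959% of genes were at least 0.25 lower in place of 1.36%, and 1.71% fell in the middle libraries in place of 5.36%. These shares still include the genes that make up the scores, for which the model cannot be read. The share of higher genes was 7.397% in place of 11.5%, and that of rising genes 14.3% in place of 16.5%. The detained intron median was then 0.27 and 22 of the 28 rose. The difference of Miat was 0.57 in place of 0.82, and its slope 0.63 in place of 0.71. The slope of Leng8 was 0.80. The levels of these regional markers move with the Meg3 set, and their part in the contrast was not tested beyond these values.

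Other lists stayed close to the median of all genes. Cytosolic ribosomal proteins had a median difference of -0.03, with 0 of 78 called by size and 1 rising, and oxidative phosphorylation genes of -0.04, with 7 of 75 falling. Sdha, a subunit of succinate dehydrogenase, lay between 8.12 and 8.32 in the high set and between 8.23 and 8.40 in the low set, and fell with a slope of -0.09 ± 0.02 (limma, adjusted p = 3.1e-05). Very long neuronal genes had a median of 0.03, with 5 of 35 rising, which is no more than the 16.5% of all genes that rose. Csmd1 was among the rising ones (slope 0.24 ± 0.05). Polycomb partners had a median of 0.05 and p53 targets of 0.01. Immediate early genes, which respond to activity within minutes, had a median of 0.05, and 0 of 15 passed in the middle libraries by limma (1 rising at an unadjusted p under 0.05).

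Cell type lists differed by small amounts. General neurons had a median of -0.05, and 7 of 22 fell, led by the neurofilament genes Nefh, Nefm and Nefl with differences of -0.32, -0.29 and -0.18. Cortical and hippocampal excitatory neurons had a median of 0.09 and striatal neurons of 0.12. In these lists 3 of 19 and 2 of 16 rose, which is no more than the 16.5% of all genes that rose. These medians were -0.020 and -0.012 with the tissue scores and -0.046 and -0.015 with the values as deposited. Astrocytes had a median of -0.11, oligodendrocytes of -0.14, their precursors of -0.12 and microglia of -0.06. Hapln2, a link protein of nodes of Ranvier, went against the oligodendrocyte list, with a difference of 0.50 and a slope of 0.49 ± 0.06 (limma, adjusted p = 8.8e-11).

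Each measured red blood cell and heat shock gene was lower in the high set, but few of them fell in the middle libraries. The 7 red blood cell genes had a median difference of -0.30 between the sets and a median slope of 0.13 in the middle libraries, so the 2 signs differ, and 0 of 7 passed by limma (0 at an unadjusted p under 0.05). Of 13 heat shock genes 2 were at least 0.25 lower and 3 fell, of which Bag3, a co-chaperone of Hsp70, had a difference of -0.34 and a slope of -0.37 ± 0.08 (adjusted p = 0.0001). Of the 4 measured pituitary and pineal genes 3 were lower, Cga, Tph1 and Pomc, and Cga and Pomc fell. With the cell type scores neither passed (adjusted p = 0.12 and 0.093), and with the tissue scores the list median was 0.069, with a Cga difference of -0.0086 and a Tph1 difference of 0.36. That median includes Pomc, which is itself part of the hypothalamic score. Among circadian genes Per3 and Per2 were 0.37 and 0.25 higher and did not pass (adjusted p = 0.16 and 0.28).

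**Figure D5:**
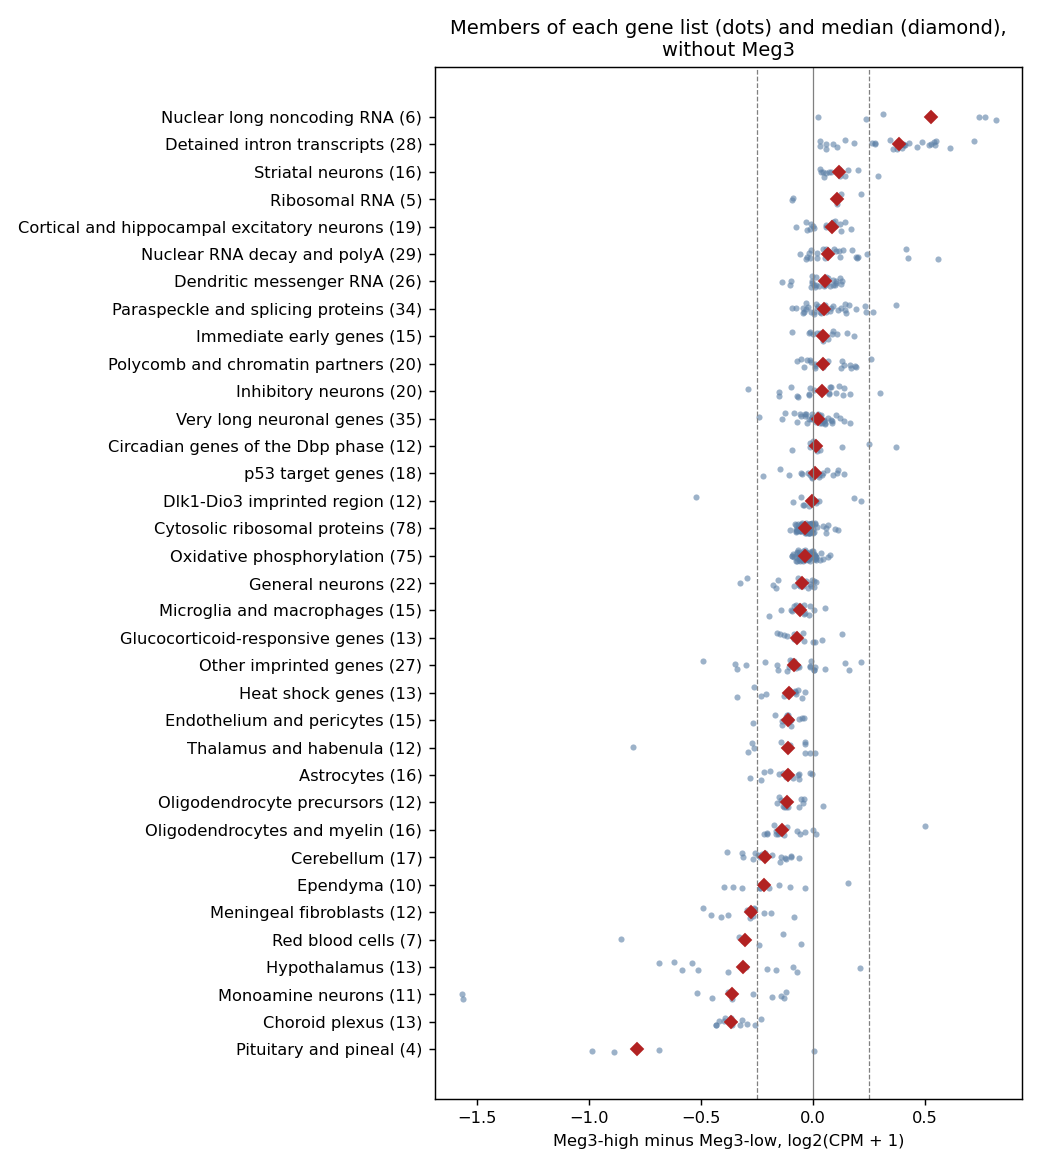
Each dot is a measured gene, placed by its difference between the high and low sets, log2(CPM + 1), in rows by list with the number of measured genes; diamonds are the medians of the dots, Meg3 is left out of both, and dashed lines mark 0.25 and -0.25. Nuclear lncRNAs (0.53) and detained intron transcripts (0.39) lie highest, and monoamine (-0.36), choroid plexus (-0.37) and the 4 pituitary and pineal genes (-0.79) lowest.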

How the data were processed

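Whole brain hemisphere RNA was made with TRIzol, selected for polyA and sequenced from directional libraries, per the labels' protocols. The submitters' processing notes name kallisto; the version and index are not given in the sources used. The deposited values are log2 of estimated counts plus 1, not scaled for depth. They were turned back, scaled to CPM, and log2 of CPM plus a pseudocount of 1 was taken. CPM is not corrected for length, so levels of different genes were not compared. The table holds 86 high, 86 low and 170 middle libraries, and 10 labelled samples were not analysed here. Of 38354 genes, 38278 matched RefSeq (GRCr8) by symbol and 16683 had a mean level of at least 1. Library totals ran from 5418230 to 42980793, so low genes rest on few counts in the smallest libraries.

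The high and low sets were cut at the 75% and 25% quantiles of Meg3. A call between them is a difference of means of at least 0.25 in size, with no test. The slope in the middle libraries was fitted with limma 3.58.1 in R 4.3.3 (eBayes with trend), with Benjamini-Hochberg adjustment over 16682 genes and a threshold of 0.05. The fit was also run on simulated levels with independent noise for each gene. Real genes vary together, so that run checks the code and not the calls. The contrast, its genes and the gene lists were chosen with earlier results of these data known. Named genes are the measured nuclear lncRNAs, the 15 largest differences in each direction at a mean level of at least 3, up to 3 genes a list by difference, and the 10 smallest p; others were chosen after their values were seen, among them the genes with ranges apart, other members of lists and the genes near Meg3. Alternatives were the pseudocount, scaling, level minimum, libraries, identifier block, covariates and robust estimation. Added after seeing the data were the Xist class, the tissue scores, the ribosomal RNA share with the library total for the difference, and exclusion of renamed libraries.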

Additional observations from a re-analysis of the deposited data

How the results depend on the processing

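No paired analysis was possible because all libraries form a single group and replicate numbers only name samples. Shares of genes are given in percent of the genes tested in each setting; settings other than those named here kept each count within 1.5 times. Between the high and low sets, 2.17% of genes were lower with a pseudocount of 0.1, 9.24% with the values as deposited, 0.997% (6.28% higher) at a mean level of at least 3, and 0.0959% (7.397% higher) with the tissue scores. In the middle libraries, 13.9% fell with median ratio scaling, 0.803% rose and 0.030% fell with the values as deposited, 14.1% rose at a mean level of at least 3, where fewer genes are tested, 9.74% rose with the cell type scores and 1.71% fell with the tissue scores. The median difference of all genes was -0.12 with the values as deposited; the cause of the other shifts was not tested.

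List medians that moved by more than the spread between libraries were as follows. With the values as deposited they were -0.13 for the Dlk1-Dio3 region, -0.22 for other imprinted genes, 0.26 for detained introns, -0.080 for splicing proteins, -0.062 for nuclear decay, -0.086 for Polycomb, -0.12 for p53, -0.11 for very long genes, -0.17 for ribosomal proteins, -0.17 for oxidative phosphorylation, -0.080 for dendritic RNA, -0.18 for general neurons, -0.046 for excitatory neurons, -0.091 for inhibitory neurons, -0.015 for striatal neurons, -0.55 for hypothalamus, -0.25 for thalamus, -0.25 for astrocytes, -0.27 for oligodendrocytes, -0.25 for their precursors, -0.19 for microglia, -0.25 for endothelium, -0.43 for meninges and -0.38 for ependyma. With the tissue scores they were 0.48 for nuclear lncRNAs with Meg3, -0.0012 for other imprinted genes, 0.27 for detained introns, -0.021 for dendritic RNA, -0.020 for excitatory neurons, -0.0067 for inhibitory neurons, -0.012 for striatal neurons, -0.032 for oligodendrocyte precursors, -0.012 for ependyma and, with the sign reversed, 0.069 for pituitary and pineal genes. With median ratio scaling they were 0.015 for splicing proteins, -0.084 for general neurons and 0.0039 for inhibitory neurons, and with no level minimum -0.11 for pituitary and pineal genes.

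Signs also reversed for single genes. The Ddx3y difference was 0.034 with the Xist class, and the Per3 slope -0.074 with the cell type scores. With the tissue scores the differences of Slc6a5 and Tph1 were 0.024 and 0.36, and the slopes were -0.14 for Pantr1, -0.045 for Pvt1, 0.017 for Slc6a5, 0.0094 for Glra1, 0.024 for Mab21l2, 0.052 for Peg10, 0.17 for Asb4, 0.034 for Cdkn1c and 0.15 for Pou4f1. Of the named genes whose slope passed, 73 no longer passed with the values as deposited, 31 with the cell type scores, 18 with the tissue scores, 4 with median ratio scaling, 3 with no level minimum, 2 with the Xist class, and 1 each without the libraries that stand apart or the renamed ones. Lists that make up a score were not read in the model with that score. Other lists, families and the shares over all genes still hold some genes of a score, such as Pomc among pituitary genes and Igf2 among imprinted genes. The model with that score cannot be read for those genes.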

Other observations

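Gene families were grouped by symbol after the data were seen, so the counts are descriptions beside the tests of single genes by limma. The fibrillar collagens split by type. Of 11 measured, 8 rose in the middle libraries, led by Col5a1 (slope 0.69 ± 0.06, difference 0.72), Col11a1 (slope 0.67 ± 0.07, difference 0.70) and Col24a1 (slope 0.93 ± 0.10, difference 0.98). The 3 that did not pass, Col1a1, Col1a2 and Col3a1, were the abundant chains of meningeal fibroblasts and were lower in the high set. The split of 8 rising genes was the same with a pseudocount of 0.1, with median ratio scaling and without the libraries that stand apart; 5 rose with the values as deposited.

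Splicing regulators of the SR, Srpk, Luc7l and Clk families included 20 of 30 genes that rose, among them Srpk3, a kinase of SR proteins (difference 0.82, slope 0.77 ± 0.09), and 1 that fell, Srpk2 (slope -0.06 ± 0.02). Srpk2 did not pass with the cell type scores (adjusted p = 0.49) or the tissue scores (0.054), and 1 of the 30 rose with the values as deposited. Of 19 small nuclear ribonucleoprotein genes only Snrnp70 and Snrnp48 rose (slopes 0.51 ± 0.04 and 0.37 ± 0.07). Of the zinc finger genes named Zfp with a number, 68 rose (20.2%, beside 16.5% of all genes) and 5 fell (1.48%). With median ratio scaling 13.4% rose and 4.45% fell, with the cell type scores 12.2% rose, and with the values as deposited 1 gene rose.

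Some families of abundant transcripts held more falling genes than the 5.36% of all genes that fell, while others did not: 7 of 47 proteasome subunits fell and 2 rose, 4 of 17 vacuolar ATPase subunits fell and 1 rose, and the 78 cytosolic ribosomal protein genes held 1 that rose and 0 that fell by limma (5 falling at an unadjusted p under 0.05). Of 16 glycolytic enzyme genes 11 fell, with slopes of -0.11 ± 0.02 for Pkm, the last enzyme of the pathway, and -0.12 ± 0.02 for Hk1, the first. Of 8 chaperonin genes 5 fell, as did 7 of 20 cytosolic tRNA synthetases, and 7 of 15 tubulins while 1 rose. These medians kept their sign under each scaling run, but with the values as deposited only 5 genes of the whole table fell by limma. With the cell type scores 2 of 16 glycolytic genes, 2 of 15 tubulins and 1 of 20 tRNA synthetases fell. The chaperonins no longer passed, and Pkm had an adjusted p of 0.077 (limma). With the same scores 1 of 47 proteasome and 1 of 17 vacuolar ATPase genes fell. The median slopes of these 2 families were then 0.0026 and 0.0097, in place of -0.042 and -0.039. Genes of these families that are part of a score, such as Tubb3 in the neuron score, cannot be read in that model. All 5 neurofilament genes fell, with a median difference of -0.29. With the tissue scores 2 of 5 fell and the median was -0.075. With the cell type scores they no longer passed, but Nefl, Nefm and Nefh are part of the neuron score, so that model cannot be read for them. Of 35 clustered protocadherins, surface proteins that give neurons an identity, 0 passed by limma (0 at an unadjusted p under 0.05).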
